A study of Mus musculus with 12 samples.

Results

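The 10 genes described here encode enzymes of glycolysis and were taken by name, as Gpi1, Pfkl, Aldoa, Tpi1, Gapdh, Pgk1, Pgam1, Eno1, Pkm and Ldha. All 10 were found among the 35522 genes of the files, and all 10 passed the filter on low counts in every comparison. Glycolysis splits glucose into pyruvate in the cytosol, and lactate dehydrogenase turns pyruvate into lactate. The pathway supplies ATP and, in fat cells, the glycerol backbone of triglyceride, and macrophages rely on it when activated. For most steps the genome holds several related genes whose products run the same reaction in different tissues, and the genes listed here are the broadly used forms.

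The libraries came from stromal vascular fraction (SVF) cells, the non-fat cells of a fat depot, prepared from the epididymal white adipose tissue (eWAT) of 12-week-old male ob/ob mice, which lack leptin. All cultures received an adipogenic cocktail, were grown for 4 days with DMSO (Veh) or with 1 µM rosiglitazone (Rosi), a drug that activates PPARγ, and were given cycloheximide, which holds ribosomes on mRNA, shortly before lysis. Total RNA (input) and RNA pooled from the polysome fractions of a gradient (polysome) were sequenced, in 3 libraries for each of the 4 groups. Libraries titled eWAT were taken as the polysome pool. The labels call the replicates biological but do not say which mice or cultures stand behind each library, so p-values measure the spread between libraries, which may be technical. Input Veh replicates 2 and 3 held identical values and were counted as 1 library, which left 11 libraries with 17446517 to 24016101 estimated reads each.

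Markers of several cell types were measured. Marker mRNAs of macrophages summed to between 12031 and 21723 counts scaled to library size (CPM) over the 11 libraries, with all 10 above 0, whereas 5 of 10 adipocyte markers stayed below 1 CPM in input Veh. Lymphocyte and erythroid markers summed to at most 0.300 CPM. In such bulk RNA, fewer cells of a type and less RNA per cell cannot be told apart. The first principal component, with 50.2% of the variance, separated polysome from input, and polysome Veh replicate 1 lay farthest out on its side.

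Levels of different genes were compared per length, as length-scaled abundance (TPM), which sums to the same total in each library. In input Veh the order was Gapdh at 3766 ± 177 TPM (SD, n = 2), which oxidises glyceraldehyde 3-phosphate, then Pkm, Aldoa, Eno1, Ldha, Pgk1, Pgam1, Gpi1, Pfkl and Tpi1. Eno1 at 2257 ± 159 and Ldha at 2183 ± 39.6 TPM lay within each other's spread, as did Pgk1 at 1271 ± 84.4 and Pgam1 at 1249.8 ± 79.1 TPM. Pfkl, the liver-type phosphofructokinase that commits sugar to the pathway, stood at 131 ± 9.90 TPM, far below its neighbours in the chain. In the polysome pool of Veh, Gapdh led at 2006 ± 249.7 TPM (SD, n = 3), and Ldha followed at 1563 ± 59.2 TPM. Pkm, next to Gapdh in input, ranked below Aldoa, at 1181 ± 222 TPM, and Pgam1 there, at 962 ± 180.5 TPM. It lay within the spread of Aldoa, of Pgam1 and of Pgk1, the next below. Together the 10 mRNAs made up 1.71% ± 0.0212 of all TPM in input Veh, 1.53% ± 0.116 in input Rosi, 0.904% ± 0.0952 in polysome Veh and 0.858% ± 0.0360 in polysome Rosi. The summed share was therefore lower in all 6 polysome libraries, at 0.794% to 0.959%, than in the 5 input libraries, at 1.45% to 1.72%.

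Pyruvate kinase has sequence variants worth showing because the files separate them. Pkm lies on chromosome 9 of mm10, between 59656368 and 59679375 on the plus strand, and has alternative coding exons of 167 bases each. Of its 11 listed transcripts, 2 carry the exon of the M1 form, 1 carries that of the M2 form and 0 carry both. The exon of the M1 form, at chr9:59675029-59675195, is typical of muscle and brain, and that of the M2 form, at chr9:59675568-59675734, of proliferating cells and macrophages. The exons share 103 of 167 bases (61.7%), and the 64 that differ are in capitals below.
M1 exon: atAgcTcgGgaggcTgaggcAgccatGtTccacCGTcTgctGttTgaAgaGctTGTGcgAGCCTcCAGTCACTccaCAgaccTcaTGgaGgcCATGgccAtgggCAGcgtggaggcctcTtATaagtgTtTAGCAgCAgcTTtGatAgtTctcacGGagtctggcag
M2 exon: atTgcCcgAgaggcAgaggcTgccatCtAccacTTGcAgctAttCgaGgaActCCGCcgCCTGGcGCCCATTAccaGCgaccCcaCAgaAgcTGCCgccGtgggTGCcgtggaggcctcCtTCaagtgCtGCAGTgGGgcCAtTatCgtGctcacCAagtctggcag

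In every library the M2 transcript held most Pkm reads, at 71.3% to 76.9% of them. Among reads of transcripts with either exon, the M1 share was 27.9% and 25.4% in input Veh. It was 26.3%, 28.4% and 28.4% in input Rosi, then 24.2%, 23.1% and 26.6% in polysome Veh, and 25.6%, 24.6% and 22.9% in polysome Rosi. The M1 share differed by -3.33 percentage points between polysome and input under Rosi, with no overlap of the 3 and 3 libraries (two-sided exact permutation test, p = 0.1, the smallest this design allows). Under Veh the difference was -2.03 points (two-sided exact permutation test, p = 0.3), and those groups overlapped. Rosi and Veh differed by 1.02 points in input and by -0.279 points in polysome (two-sided exact permutation tests, p = 0.5 and p = 0.9). No such test could reach 0.05 here, because 0.1 is the smallest p with 2 against 3 or 3 against 3 libraries, and the p-values of the 4 comparisons were not adjusted.

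**Figure D1:**
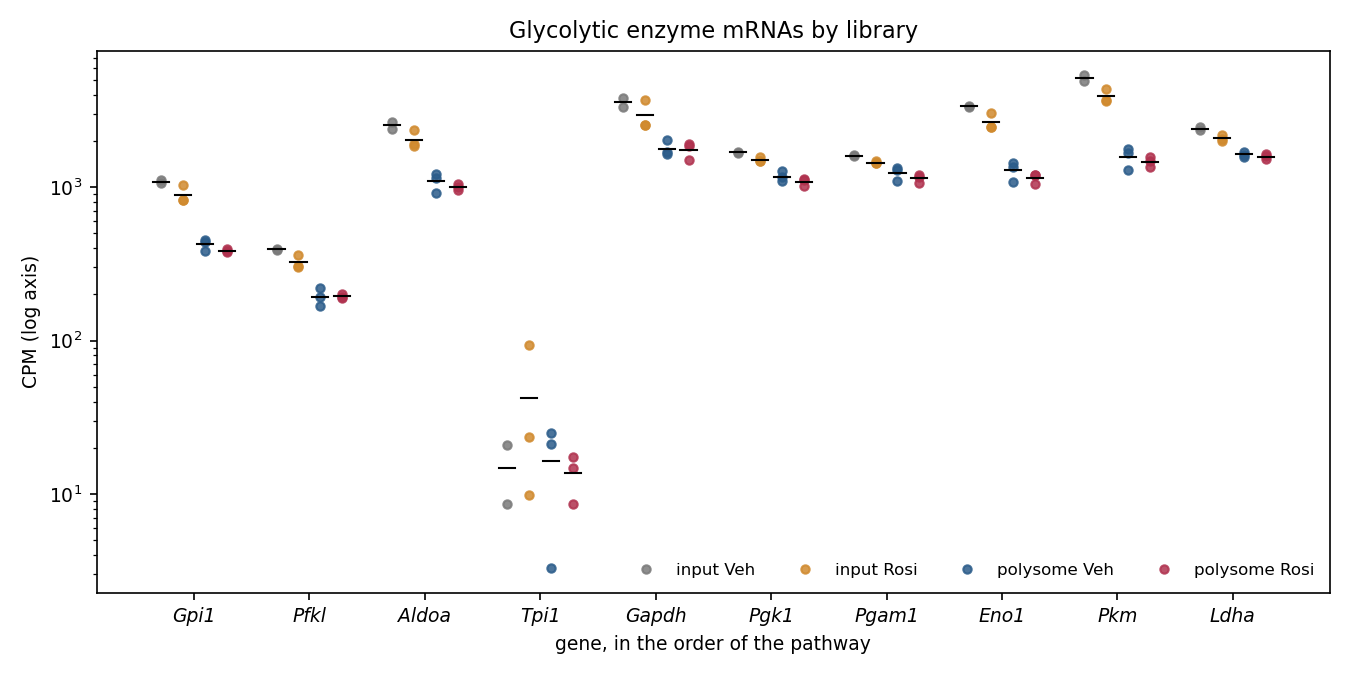
CPM of each enzyme mRNA in every library (points, log axis), in the order of the pathway, with the group mean as a bar. In 9 of the 10 genes all polysome points lie below all input points of the same treatment, while Tpi1 scatters from 3.27 to 93.8 CPM.

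The comparison of polysome with input asks how much of each mRNA was recovered with several ribosomes, relative to all other mRNAs. The polysome share of most glycolytic mRNAs was lower than their share of total RNA. With Veh, 6 of the 10 were called lower (adjusted p under 0.05 in edgeR's quasi-likelihood test and a log2 fold change beyond 1 in size), against 6.68% of 14042 genes called lower, and 0 were called higher. Without regard to size, 9 of 10 were lower at an adjusted p under 0.05, against 24.6% of all genes. The libraries of 9 genes did not overlap, with polysome lower, as was the case for 31.5% of all genes. The median log2 fold change was -1.01 over the 10 mRNAs and 0.02 over all genes. Without polysome Veh replicate 1, the library that lay apart, 4 were called, though the share of all genes called in that fit is not given here. Summed markers of some other cell types were also lower in polysome Veh than in input Veh, without overlap. Those of smooth muscle and pericytes summed to between 7753 and 8471 CPM against 11566 to 11688 CPM, and those of mesothelium to between 59.0 and 69.2 CPM against 117 to 137 CPM. Those of progenitors summed to between 1633 and 2025 CPM against 3925 to 4762 CPM, but this sum was mostly Col1a1, the only 1 of the 8 called lower, and the median log2 fold change of the 8 was 0.06. Of the 6 markers of smooth muscle and pericytes, 1 was called lower and 1 higher, with a median of -0.74. Summed adipocyte markers were instead higher in polysome Veh, at 135 to 181 CPM against 90.9 to 97.5 CPM. That sum was mostly Fabp4, at a mean of 131.5 CPM in polysome Veh and 66.9 CPM in input Veh. Of 9 adipocyte markers tested, 1 was called higher and 2 lower, with a median log2 fold change of -0.1. The sum of epididymis markers was also higher, but only 1 of the 6, Crisp1, passed the filter. Macrophage sums overlapped, at 16660 to 21723 CPM against 16818 to 19351 CPM. This sum was mostly Lyz2, at a mean of 14627 CPM in polysome Veh and 10686 CPM in input Veh. Of the 10 macrophage markers, 8 had a log2 fold change below 0, with a median of -0.48, and 1 was called lower and 0 higher. The part of these cell types in the enzymes' values was not tested.

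Pkm stood out in size. Its level was 4936 and 5372 CPM in input Veh and 1296, 1769 and 1675 CPM in polysome Veh. No polysome library came near the input level. The log2 fold change was -1.71 ± 0.13 (SE), 3.26-fold lower (edgeR, adjusted p = 3.19e-07), rank 165 from the lowest of 14042 genes.

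Upstream of Pkm, the first enzyme of the chain listed here is Gpi1, which converts glucose 6-phosphate to fructose 6-phosphate. It measured 1067 and 1109 CPM in input Veh and 386, 455 and 438 CPM in polysome Veh, with a log2 fold change of -1.35 ± 0.11 (edgeR, adjusted p = 4.46e-07). No polysome library reached the level of an input library. Pfkl measured 397 and 389 CPM against 168, 192 and 222 CPM, a log2 fold change of -1.02 ± 0.12 (edgeR, adjusted p = 6.69e-06). Aldoa, the aldolase that cuts fructose 1,6-bisphosphate into triose phosphates, measured 2415 and 2652 CPM against 913, 1221 and 1157 CPM, a log2 fold change of -1.21 ± 0.13 (edgeR, adjusted p = 3.52e-06).

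Further down the pathway the sizes differed more. Eno1, the enolase that makes phosphoenolpyruvate, measured 3412 and 3350 CPM against 1090.4, 1349 and 1451 CPM, a log2 fold change of -1.38 ± 0.12 (edgeR, adjusted p = 9.8e-07). Gapdh measured 3339 and 3844 CPM against 1642, 2032 and 1697 CPM, and its fold change of -1.0 ± 0.16 on the log2 scale (edgeR, adjusted p = 0.000107) lay at the limit of 1 and lost its call in 9 of 23 alternatives. Pgk1, which makes the first ATP of the pathway, measured 1706 and 1680 CPM against 1271, 1162 and 1091 CPM. Its log2 fold change was -0.53 ± 0.09 (edgeR, adjusted p = 0.000312), so that it was lower but by less than the limit for a call.

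Ldha, the lactate dehydrogenase subunit typical of glycolytic tissue, measured 2348 and 2484 CPM against 1636, 1689 and 1586 CPM, a log2 fold change of -0.56 ± 0.09 (edgeR, adjusted p = 0.000104). Pgam1, which moves the phosphate of 3-phosphoglycerate, measured 1613 and 1594 CPM against 1105, 1294 and 1342 CPM and had the smallest difference of the 9, at -0.36 ± 0.10 (edgeR, adjusted p = 0.00665). The intervals of Pkm (95% interval of the log2 fold change -1.98 to -1.43) and of Ldha (-0.75 to -0.37) did not overlap, though the difference between genes was not tested.

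With Rosi the same direction was measured, in separate libraries. There 4 of the 10 were called lower, against 4.86% of all genes, and 9 were lower at an adjusted p under 0.05, against 26.0%. Again 9 did not overlap, against 31.7% of all genes, and the median was -0.88 where all genes had 0. Without Tpi1 the median of the enzymes was -0.74. Pkm was the lowest of the 4 called, at 4394, 3724 and 3632 CPM in input and 1488, 1580.3 and 1350.4 CPM in polysome, a log2 fold change of -1.41 ± 0.12 (edgeR, adjusted p = 4.91e-07). Gpi1 at -1.21 ± 0.10, Eno1 at -1.21 ± 0.11 and Aldoa at -1.02 ± 0.12 were also called, Aldoa in all but 3 of 23 alternatives. Gapdh at -0.74, Pfkl at -0.73, Pgk1 at -0.48, Ldha at -0.40 and Pgam1 at -0.34 were lower by less than the limit. The order of the genes was therefore much the same, with Pkm, Gpi1 and Eno1 at one end and Ldha, Pgk1 and Pgam1 at the other.

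**Figure D2:**
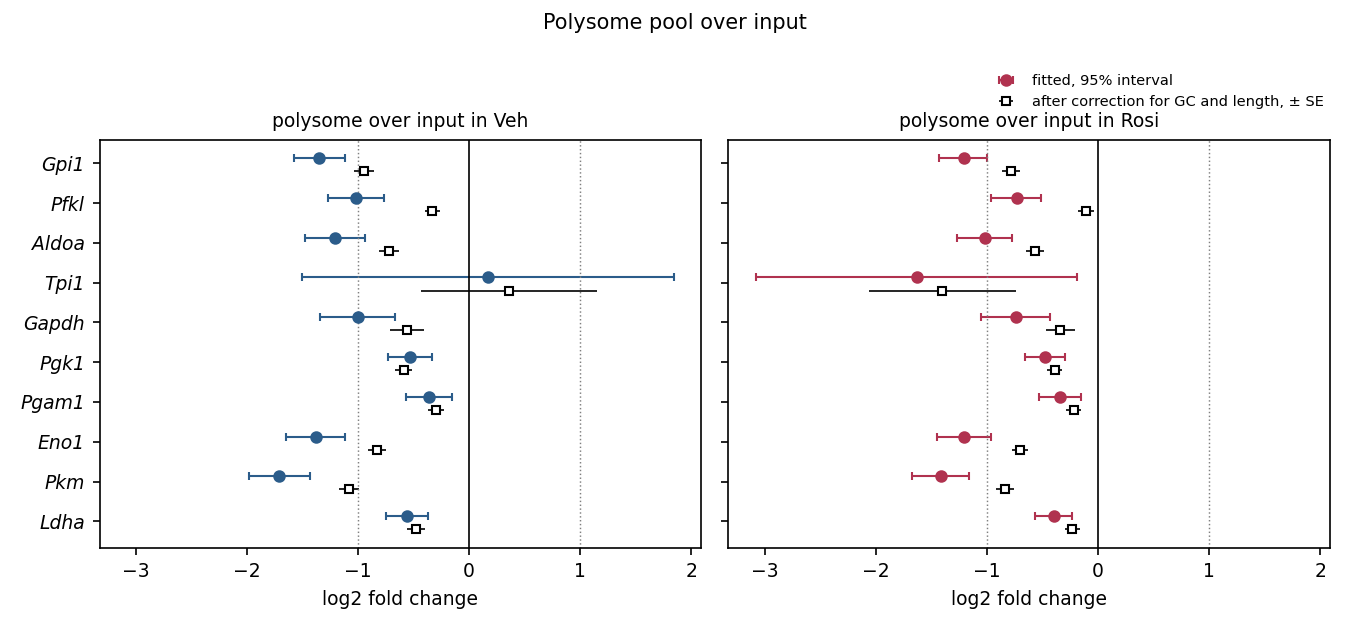
Log2 fold change of polysome over input for each enzyme with Veh (left) and Rosi (right). Filled points are the edgeR fit with its 95% interval, open squares the fit corrected for transcript GC and coding length with its SE, and dotted lines the limit of 1. Pkm moves from -1.71 to -1.08 with Veh under the correction, and the other 5 called genes move inside the limit.

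Transcript composition went with this difference across all genes. Over 13237 coding genes, Spearman's rho between the GC content of the most-read transcript and log2 polysome over input was -0.66 with Veh and -0.68 with Rosi, and it was -0.30 and -0.32 for the coding length. These are descriptions over genes that share libraries. The most-read transcripts of the glycolytic genes had a median GC of 55.1% against 50.3% over all genes, from 49.7% in Pgk1 to 57.7% in Pkm. Their median coding length was 1171.5 bases against 1317. Genes with 55% to 60% GC, where Pfkl, Aldoa, Gapdh, Eno1 and Pkm lie, had a median log2 fold change of -0.52 with Veh (2758 genes), and those with 50% to 55%, where Gpi1, Pgam1, Ldha and Tpi1 lie, had -0.21 (3427 genes). Among the 9 enzymes other than Tpi1, rho with GC was -0.85 with Veh and -0.75 with Rosi.

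A fit that removed from each library a smooth trend in GC and coding length, chosen after the data were seen, ended most calls. With Veh, 1 of the 10 was then called, against 1.45% of 13237 genes called lower, and with Rosi 0 were called, against 0.959%. Pkm kept its call with Veh at -1.08 ± 0.09 (edgeR, adjusted p = 4.19e-07) and had -0.84 with Rosi. Gpi1 moved to -0.95 and -0.78, Eno1 to -0.83 and -0.70, Aldoa to -0.72 and -0.57, and Gapdh to -0.56 and -0.34 with Veh and Rosi. Pfkl, at -0.33 and -0.11, lost the most. The direction remained below 0 for the 9 enzymes other than Tpi1, and at an adjusted p under 0.05 and any size 9 were lower with Veh, against 18.8% of genes, and 7 with Rosi, against 16.7%. The part of GC content in the enzymes' values was not tested beyond this fit.

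**Figure D3:**
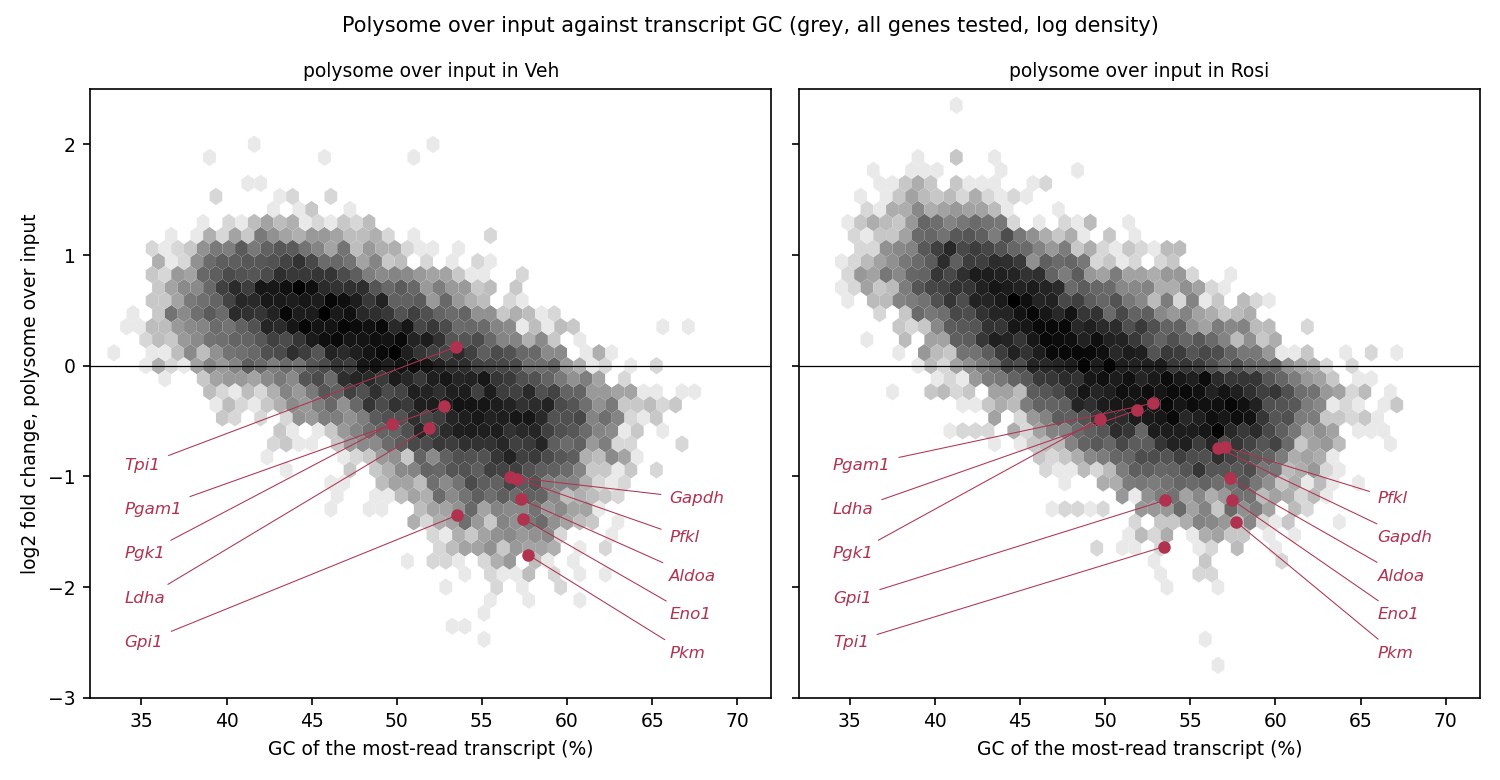
Log2 fold change of polysome over input against the GC content of the most-read transcript (percent) for 13237 coding genes (grey, darker where denser, log scale), with the 10 enzymes in red. Genes beyond the plotted range are not drawn. The cloud falls with GC, with rho at -0.66 and -0.68, and Pkm and Gpi1 lie in its lower part in both panels.

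Gapdh, on chromosome 6 of mm10 (125161715 to 125166467, minus strand), needs a further remark on its counts. A blastn search found 173 annotated genes that share at least 300 bases with it at 90% identity or more, and 102 of them held reads. All are counted here as copies, among them the protein-coding gene Peli2 (1084 bases at 90.8%), with 267 to 542 reads per library that may be its own. The processed pseudogene Gm7336, on chromosome 7 of mm10 (51746647 to 51747878, plus strand), aligned with the Gapdh transcript over 1232 bases with 1 substitution, G197A counted from the start of Gapdh-203, and 1 gap of 2 bases. The whole coding stretch of 999 bases was identical, so reads from it cannot be told apart. Of the reads assigned to Gapdh or a copy, 37.0% and 33.1% lay in copies in input Veh, and 30.1%, 41.7% and 39.7% in input Rosi. They were 15.9%, 21.1% and 31.3% in polysome Veh and 28.0%, 19.1% and 8.50% in polysome Rosi. All 5 input libraries but input Rosi replicate 1 lay above every polysome library. With the copies added, Gapdh had 5298 and 5744 CPM in input Veh against 1952, 2574 and 2471 CPM in polysome Veh. Its log2 fold change became -1.24 with Veh and -1.11 with Rosi, both called in edgeR. In the other 9 genes copies held at most 3.76% of reads, the highest share being that of Pgam1.

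Tpi1, triose phosphate isomerase, differed from the rest. Its level was 20.7 and 8.58 CPM in input Veh, 93.8, 9.77 and 23.5 CPM in input Rosi, 21.0, 3.27 and 25 CPM in polysome Veh and 8.60, 17.5 and 14.7 CPM in polysome Rosi. All 4 groups overlapped. The transcript Tpi1-205 held from 0% to 94.5% of its reads, with Tpi1-203 taking most of the rest. Each file also held 1162 transcripts that the annotation used here does not list, the largest with 14850 to 21661 reads, and whether any belongs to Tpi1 could not be determined. Its log2 fold change was 0.17 ± 0.78 with Veh (edgeR, adjusted p = 0.877) and -1.63 ± 0.68 with Rosi (edgeR, adjusted p = 0.0528), which passed the test in 10 of 23 alternatives, and its values are not read as the level of the gene.

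At the level of transcripts, 63 of the 95 listed for the 10 genes passed the filter. With Veh 12 were called lower, against 3.6% of 34654 transcripts, and with Rosi also 12, against 3.49%. None was called higher, and 15 distinct transcripts were called lower in at least 1 treatment. Both Pkm forms were among them, the main M2 transcript at -1.61 ± 0.14 and the main M1 transcript at -1.76 ± 0.13 on the log2 scale with Veh (edgeR, adjusted p = 0.00019 and 0.00012). Of Gpi1, on chromosome 7 of mm10 (34201330 to 34230336, minus strand), the full-length transcript was called lower with Veh, at -1.56 ± 0.11 (edgeR, adjusted p = 0.00011). A partial model, annotated as a target of nonsense-mediated decay, had 0.84 ± 0.36 (edgeR, adjusted p = 0.154).

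All transcripts of Gpi1 annotated for nonsense-mediated decay held 3.80% and 5.68% of its reads in input Veh and 7.37%, 5.43% and 4.45% in input Rosi. In polysome Veh they held 25.6%, 20.1% and 17.4%, and in polysome Rosi 19.0%, 18.7% and 24.0%. The polysome libraries were thus all above the input libraries, by 16.3 percentage points with Veh and 14.8 with Rosi (two-sided exact permutation tests, p = 0.1 for each, the smallest possible). The partial model of Gpi1 consists of 933 bases in 8 exons near the 3′ end, all of them within the exons of the full-length transcript, and differs from it in 1 junction that skips 85 bases. A change of coverage along the gene and a change of splicing cannot be told apart in these files.

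**Figure D4:**
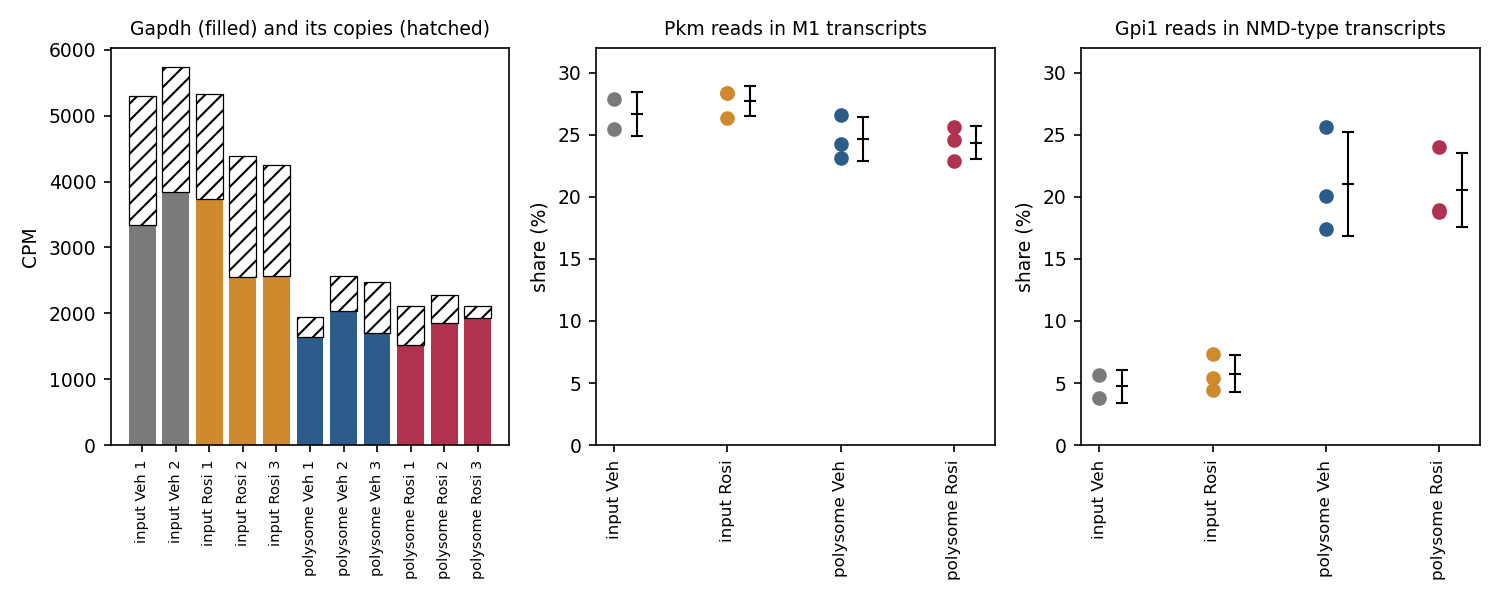
Left, CPM assigned to Gapdh (filled) and to the genes that share at least 300 bases with it at 90% identity or more (hatched) in each library. Middle and right, percent of Pkm reads in M1 transcripts and of Gpi1 reads in transcripts annotated for nonsense-mediated decay (points, libraries, with mean and SD beside them). The Gpi1 share is 3.80% to 7.37% in input and 17.4% to 25.6% in polysome.

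The other comparison asks what Rosi changed. In input, 0 of the 10 enzymes were called (adjusted p under 0.05 and a log2 fold change beyond 0.2 in size), against 1.34% of 13603 genes, with edgeR. At an unadjusted p under 0.05, 5 were lower, against 7.79% of all genes, and 1 was higher, Tpi1. Of the 10, 9 had a log2 fold change below 0, against 48.1% of all genes, with a median of -0.22 against 0.01 over all genes. In 8 of them all Rosi libraries lay below both Veh libraries, as did 23.9% of all genes. DESeq2 called 1 of the 10, Pkm, and limma on log2(TPM + 1) called 0. The share of all genes that each of these methods called is not given here.

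Pkm had the largest decrease, from 4936 and 5372 CPM to 4394, 3724 and 3632 CPM, a log2 fold change of -0.33 ± 0.09 (edgeR, adjusted p = 0.0922). Eno1 followed at -0.28 ± 0.09 (edgeR, adjusted p = 0.15), from 3412 and 3350 CPM to 3036, 2481 and 2481 CPM. Input Rosi replicate 1 was the highest of its group in both. Aldoa at -0.24, Gpi1 at -0.22, Gapdh at -0.22, Pfkl at -0.21, Ldha at -0.14, Pgk1 at -0.09 and Pgam1 at -0.08 did not pass either.

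The count rests on that library. Without input Rosi replicate 1, 6 enzymes were called lower, Gpi1, Pfkl, Aldoa, Gapdh, Eno1 and Pkm, with log2 fold changes of -0.29 to -0.41. In that fit 1580 genes were called in either direction, where 182 of 13603 were called with all libraries. Calls thus rose well beyond the enzymes. Over all input libraries the macrophage markers summed to 16818 and 19351 CPM in Veh and to between 12031 and 14123 CPM in Rosi, without overlap, and 10 of 10 had a log2 fold change below 0, with a median of -0.41 and 2 called lower, Lyz2 and Msr1. Adipocyte markers summed to between 90.9 and 97.5 CPM in Veh and to between 682 and 781 CPM in Rosi, with 6 of 9 tested called higher. The part of this cell composition in the enzymes' values was not tested.

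In the polysome pool, 0 of the 10 were called, against 0.655% of 13436 genes, and 0 had an unadjusted p under 0.05 in edgeR. DESeq2 and limma also called 0. The libraries of Rosi and Veh overlapped in all 10, whereas 4.38% of all genes lay wholly lower in Rosi. All 10 had a log2 fold change below 0, with Pfkl at 0.00 when rounded, against 52.3% of all genes. The median log2 fold change was -0.13 against -0.01 over all genes. Eno1 had -0.18 (95% interval -0.44 to 0.08), Pkm -0.11 (-0.39 to 0.16) and Ldha -0.06 (-0.27 to 0.16). Decreases of the size measured in input lie inside these intervals for Eno1, Pkm and Ldha.

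The change of polysome over input between Rosi and Veh, an interaction that stands for a change in translation efficiency, was called for 0 of the 10 enzymes and for 0% of 14042 genes in edgeR, with 961 genes at an unadjusted p under 0.05. It is built from the same libraries as the comparisons above. DESeq2 and limma called 0 of the 10 as well, and 0 had an unadjusted p under 0.05. Pkm had the highest value, 0.30 (95% interval -0.08 to 0.67), followed by Pfkl at 0.29 (-0.05 to 0.62) and Gapdh at 0.26 (-0.20 to 0.72). The median was 0.17 against 0.06 over all genes.

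**Figure D5:**
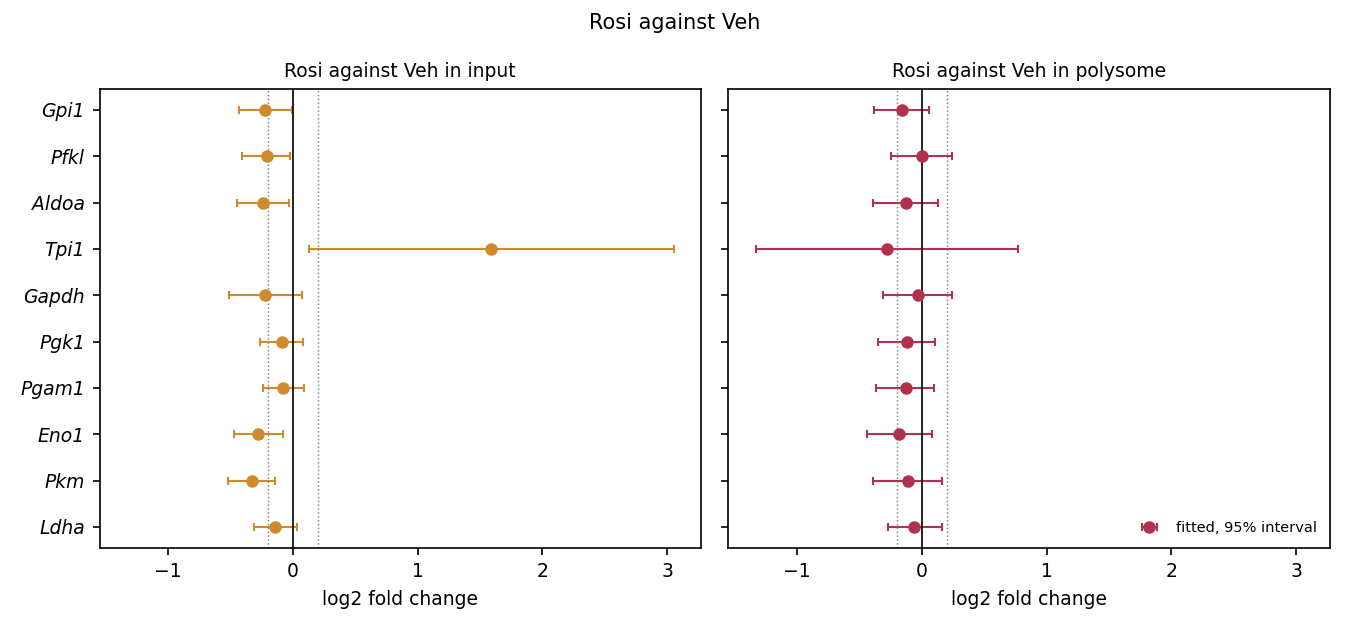
Log2 fold change of Rosi against Veh for each enzyme in input (left) and in polysome (right), with the 95% interval of the edgeR fit, the dotted lines marking the limit of 0.2. In input 9 of 10 lie below 0, and in polysome 10 of 10, with Pfkl at 0.00 when rounded. The intervals of Gapdh, Pgk1, Pgam1 and Ldha cross 0 in input, and those of all 10 in polysome.

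Around the 10 enzymes, the remaining genes of the pathway and related genes were listed as well. Of 22 other genes listed for glycolysis, mostly tissue-restricted relatives, 16 were tested. With Veh 8 were called lower in polysome than input and with Rosi 3, against 6.68% and 4.86% of all genes, and none was called higher. The median log2 fold change of the 16 was -0.85 with Veh. The lowest values of the list were those of Hk3, a hexokinase found in myeloid cells, at -1.79 ± 0.15 (edgeR, adjusted p = 4.46e-07), and of Hk1, another hexokinase, at -1.77 ± 0.16 (edgeR, adjusted p = 9.69e-07). Hk2 and Adpgk, which also phosphorylate glucose, had -0.60 ± 0.09 and -0.51 ± 0.12 and were not called. Hk1 stood at 66.8 ± 6.03 TPM in input Veh and at 21.0 ± 6.31 TPM in polysome Veh. Pfkm, the muscle-type phosphofructokinase, had -1.24 ± 0.12 (edgeR, adjusted p = 2.15e-06), and Pfkp, Aldoc, Eno3, Pklr and Ldhd were called too. Ldhd lay near the floor, at means of 1.19 CPM in input Veh and 0.426 CPM in polysome Veh. After the correction for GC and coding length, 5 of the 16 were called with Veh (Hk1, Hk3, Pfkp, Aldoc and Pklr) and 0 with Rosi, where 1.45% and 0.959% of genes were called lower.

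Of 19 genes tested for glycogen and side branches, 7 were called lower in polysome with Veh and 5 with Rosi, against the same shares of all genes. Of these 19, 12 were not called with Veh, and 1, Rpe, of the pentose phosphate pathway, was called higher with Rosi, at 1.12 ± 0.12 (edgeR, adjusted p = 2.19e-06). G6pdx, the entry enzyme of the pentose phosphate pathway, had -1.38 ± 0.10 (edgeR, adjusted p = 2.91e-07) with Veh, and Tkt, the transketolase of the same route, had -1.42 ± 0.12. Pck2 and Pcx, enzymes that lead from pyruvate back towards sugar or glycerol, were called lower in polysome with both treatments. The correction left 1 of 18 side-branch genes called lower with Veh, G6pdx, and 0 with Rosi, and it called 0 of the 2 genes of gluconeogenesis that it covered, Pcx among them, with either treatment.

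Genes induced by low oxygen but outside glycolysis are known to share regulators with these enzymes. Of 18 tested, 0 were called lower in polysome, and 2 with Veh and 3 with Rosi were called higher, where 2.99% and 6.49% of all genes were called higher. Ero1l, an oxidase of the endoplasmic reticulum, had 1.21 ± 0.12 with Veh (edgeR, adjusted p = 1.79e-06), and Higd1a had 1.01 ± 0.13. With the correction 0 of the 18 were called in either treatment. Of 9 transporters of glucose and lactate, 1 was called, Slc16a7, higher with Veh at 1.05 ± 0.20, and 0 were called with the correction. Slc2a1, a widely expressed glucose carrier, stood at 123 ± 0.623 TPM in input Veh and at 82.0 ± 13.4 TPM in polysome Veh. None of 5 regulators of phosphofructokinase was called in these comparisons.

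Between Rosi and Veh, 3 genes of these lists were called, all higher with Rosi. Gpd1, which makes glycerol 3-phosphate from the triose phosphates, rose by 4.71 ± 0.18 on the log2 scale in input (edgeR, adjusted p = 1.06e-08) and by 4.44 ± 0.18 in polysome (edgeR, adjusted p = 3.02e-08). Pcx, the pyruvate carboxylase, rose by 1.33 ± 0.15 in input (edgeR, adjusted p = 0.000478) and by 1.45 ± 0.15 in polysome. Epas1, a transcription factor of the response to low oxygen, rose by 0.77 ± 0.10 in input (edgeR, adjusted p = 0.00199) and had -0.11 ± 0.14 in polysome (edgeR, adjusted p = 1). Among the other 16 genes tested for glycolysis 0 were called between Rosi and Veh in either fraction. At an unadjusted p under 0.05, 4 of them were lower and 1 higher in input, in edgeR. With the correction for GC and coding length, Hk3 and Pgd were also called lower in input, and Egln1 and Myc higher.

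The 9 enzymes other than Tpi1 varied together over the 11 libraries. Pearson's r of log2 CPM ranged from 0.819 to 0.997 over their 36 pairs, with a median of 0.958, whereas the 9 pairs with Tpi1 had 0.149 to 0.321. These values are a description, as the libraries fall into input and polysome. Of 13547 other protein-coding genes, the 10 closest to the mean pattern of the enzymes had r of 0.978 to 0.983. They were Map1s, Fbxl6, Rnpep, Trmt2a, Prrc1, Polr2a, Nckap5l, Pck2, Vill and Gbf1. Polr2a, the largest subunit of RNA polymerase II, had a log2 polysome over input of -2.02 with Veh and -1.76 with Rosi.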

How the data were processed

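RNA-seq libraries of input and polysome RNA were quantified by the authors with Salmon, per the labels' processing notes against mm10. The deposited values used here were estimated counts and TPM per transcript, and the effective length as deposited served to recompute levels. Transcripts were assigned to genes by GENCODE M21 (115973 of 117135 matched), counts were summed per gene and rounded, and reads of unmatched transcripts (0.381% to 0.464%) were left out. The labels' protocols and the study's methods give 4 days of differentiation, which is used here, although the series' design text differs.

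Genes were filtered with filterByExpr, scaled by TMM and tested with edgeR 4.0.16 (R 4.3.3), with Benjamini-Hochberg adjustment over all genes. Rosi against Veh was fitted within each fraction, and polysome over input and the interaction in 1 fit of 4 groups. The SE is the log2 fold change over the root of F. Scaled CPM and log2 fold changes are relative to all mRNAs of a library, so no absolute amount was measured. Calls needed an adjusted p under 0.05 and a log2 fold change beyond 0.2 (Rosi against Veh) or 1 (the rest). DESeq2 1.42.0 and limma 3.58.1, other scalings and filters, copies added, and each library left out were alternatives. The GC correction used splines with 5 and 4 degrees of freedom and was added later. Tests were checked on simulated data. The named genes are the 10 enzymes, list genes that were called or had the lowest p, and the 10 genes closest in pattern. The enzymes and lists were chosen with earlier results of these data known. Sequences come from the mm10 genome.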

Additional observations from a re-analysis of the deposited data

How the results depend on the processing

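The count of enzymes called between Rosi and Veh in input was 0, and became 3 with no filter on low counts (Tpi1 higher, Eno1 and Pkm lower), 1 with DESeq2 and 1 with the identical libraries counted as 2. Leaving out 1 library gave 0 to 6, the 6 without input Rosi replicate 1. Deviations of same-numbered libraries had a median correlation of -0.025 over 15 pairs, and those of differently numbered ones 0.0134 over 30 pairs. This check showed no pairing by replicate number. With deviations from means of 2 or 3 libraries, it cannot tell whether libraries were paired. With the number as a replicate block, 1 enzyme was called in input (Tpi1, higher), 0 in polysome, 5 and 4 for polysome over input with Veh and Rosi, 0 for the interaction, and 12 distinct transcripts in at least 1 treatment for polysome over input, where the fit without the block had 15. The cause of these moves was not tested. Polysome over input with Veh went from 6 to 3 in limma on log2(TPM + 1), and to 1 with the correction for GC and coding length, where Rosi went from 4 to 0. Leaving out 1 library gave 4 to 6 with Veh and 3 to 5 with Rosi, and 13 to 18 distinct transcripts. The interaction had 1 call with no filter (Tpi1, lower), and 0 to 0 when 1 library was left out, as had Rosi against Veh in polysome. For most alternatives the share of all genes called is not given here, so these counts are not read as particular to the enzymes.

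Gapdh lost its call with Veh in 9 alternatives that gave -0.56 to -1.0 and Pfkl in 4. Signs turned only in genes not called. For Rosi against Veh in polysome, Pfkl, at 0.00, took values of 0.00, 0.01 or 0.10 in 9 alternatives (-0.09 to 0.10 with 1 library left out), Gapdh 0.08 without polysome Veh replicate 2 or polysome Rosi replicate 1 (-0.10 to 0.08 over libraries left out), and Tpi1 0.16 without polysome Veh replicate 3 and 0.21 in limma (-0.76 to 0.16 over libraries left out). Tpi1 polysome over input with Veh became -0.07, -0.27 and -0.34 without polysome Veh replicate 1, polysome Veh replicate 3 and input Veh replicate 2 (-0.34 to 0.93 in all). For the interaction, Pgk1 took -0.02, 0.00 and -0.06 (0.00 to 0.11 with 1 library left out), and Pgam1 took -0.05, -0.05, -0.01 and -0.08 (-0.05 to 0.08), with upper quartile factors, without 1 library or in limma. The M1 share of Pkm differed between Rosi and Veh by -0.215 to 2.26 points in input and by -1.03 to 0.685 in polysome, and between polysome and input by -3.27 to -0.796 with Veh and -4.02 to -2.61 with Rosi when 1 library was left out. At 17446517 to 24016101 reads, counting error is small for the 9 enzymes other than Tpi1, and the number of libraries limits precision.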
